A study of Mus musculus with 36 samples.

Results

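The cytosolic ribosomal protein genes encode the proteins of the large (Rpl) and small (Rps) subunits of the cytosolic ribosome. They were taken here as the protein-coding genes of GENCODE vM1, on the mouse build mm9, whose symbol is Rpl or Rps with digits and at most a final a, x, l, p or y, together with Rplp0, Rplp1, Rplp2 and Rpsa, leaving out S6 kinases and symbols with -ps. The rule found 80 genes among the 22367 protein-coding genes on chromosomes 1 to 19, X and Y, of which 48 belong to the large and 32 to the small subunit. A promoter peak is a ChIP-seq peak whose midpoint lies within 1 kb of the transcription start site (TSS) of any protein-coding transcript of the gene.

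ChIP-seq maps where a protein sits on DNA by sequencing the fragments that are precipitated with it. The series holds 36 samples in 34 groups, and the peak lists of 9 of them were used. MBD3 and CHD4, subunits of NuRD, the nucleosome remodeling and deacetylase complex, were profiled with antibodies to the endogenous proteins in wild-type R1 embryonic stem cells (ESCs) grown in serum and LIF with 2i, with 2 replicates each, and in neural progenitor cells (NPCs) derived from wild-type R1 ESCs and kept in NPC medium, with 1 list each. SIN3A, the scaffold of another histone deacetylase complex, was profiled in the same wild-type R1 ESCs once without and once with spike-in chromatin, and the zinc finger protein ZFP296 was precipitated with a GFP antibody from ESCs that carry a GFP-tagged ZFP296, 1 list. The labels call that line ZFP296-BAC R1 ESCs, whereas the methods of the study describe a GFP-tagged ZFP296 construct put into KH2 ESCs. The label of ESC CHD4 replicate 2 is wild-type, but its peaks are named for a Zfp219 BAC throughout, so counts that rest on that list are given with and without it. Each list holds from 2304 to 29974 peaks, each with a −log10 value of its significance that can be compared within a list only. Read counts per peak were not given, so peak lists can show where a peak was called but not how much protein was bound, and they hold no measure of expression that could check the labelled cell types.

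Ribosomal protein genes are among the most strongly transcribed genes of growing cells. Their mRNAs are known to begin at a C within a stretch of pyrimidines, the 5′ terminal oligopyrimidine (TOP) motif, through which their translation is controlled together. Their promoters are compact and CpG-rich, and they have many processed pseudogenes in the mouse genome, to which reads from coding exons can map as well.

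The following starts lie within runs of pyrimidines. They belong to the 4 members with the longest uninterrupted run of C or T over an annotated start, printed from 40 bases before the start to its 20th base on mm9, with the run in capitals, a choice made after the runs were measured.
Rps2 (chr17:24857156-24857215, plus strand): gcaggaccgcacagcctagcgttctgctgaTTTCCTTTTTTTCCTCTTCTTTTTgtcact
Rpl34 (chr3:130433236-130433295, minus strand): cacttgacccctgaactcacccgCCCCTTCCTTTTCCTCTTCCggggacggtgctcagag
Rps23 (chr13:91062738-91062797, plus strand): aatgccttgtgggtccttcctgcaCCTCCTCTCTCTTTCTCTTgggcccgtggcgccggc
Rps24 (chr14:25309900-25309959, plus strand): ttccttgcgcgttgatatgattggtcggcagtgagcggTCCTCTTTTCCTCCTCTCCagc
The annotated start, the 41st printed base, is a C in Rps23 and Rps24 and a T in Rps2 and Rpl34. The runs were 24 bases in Rps2, 20 in Rpl34 and 19 in both Rps23 and Rps24. Of these bases 17 in Rpl34 and 16 in Rps23 lay upstream of the start. None of these starts is the 5′ end of the gene record, where the run was 0 bases in Rps2, Rpl34 and Rps23 and 9 in Rps24. At the 5′ end of the gene record, a run of at least 5 bases covered the start in 8 members (10%) and in 9.20% of all genes. When every annotated protein-coding transcript start was allowed, 33 members (41.2%) and 16.8% of all genes had such a run, and of the starts themselves 40 of 173 (23.1%) in members and 9.37% in all genes.

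The windows below carry the string TCTCGCGA, the core that the factor BANP is known to bind, or its reverse complement, in capitals. They are shown because this string had the highest ratio of its share in members to its share in all genes among those searched.
Rpl7a (chr2:26766249-26766303, plus strand): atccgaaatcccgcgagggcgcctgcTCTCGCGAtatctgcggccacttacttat
Rpl23a (chr11:77997083-77997142, minus strand): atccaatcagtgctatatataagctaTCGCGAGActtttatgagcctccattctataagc
Rpl26 (chr11:68715018-68715077, plus strand): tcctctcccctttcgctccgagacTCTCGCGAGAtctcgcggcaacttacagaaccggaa
In Rpl23a the reverse complement is on the printed strand, and in Rpl26 both overlap, so that 10 letters are in capitals. Over the window from 250 bases upstream to 50 downstream of the gene's 5′ end, on either strand, TCTCGCGA was found in 12 members (15%) and in 302 genes overall (1.35%). Its 17 occurrences in the 12 members began between -221 and 27 relative to the first base, with a median at -9, and 11 of them began within the 100 bases upstream. CCGGAAG, the ETS core, was found in 24 members (30.0%) against 10.8% of all genes.

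**Figure D1:**
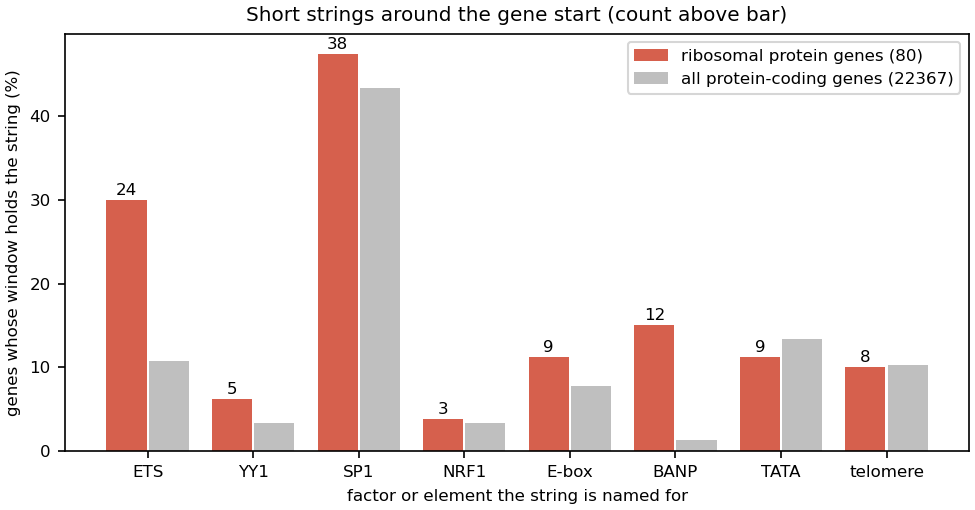
Bars give the share of genes, in percent, whose window from 250 bases upstream to 50 downstream of the gene's 5′ end holds each short string on either strand, for the 80 ribosomal protein genes (red, with the count above) and all 22367 protein-coding genes (grey). The ETS (30.0% and 10.8%) and BANP (15% and 1.35%) strings stood furthest apart, while SP1, TATA and the telomere unit were close.

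The other strings were nearer to the background. GGGCGG, the SP1 core, was in 47.5% of members and 43.4% of all genes, CACGTG, the E-box, in 11.2% and 7.78%, and AAGATGGC, the YY1 core, in 6.25% and 3.30%. GCATGCGC (NRF1) was in 3.75% and 3.30%, TATAAA in 11.2% and 13.4%, and TTAGGG, the telomere repeat unit, in 10% and 10.3%. A match describes letters, not a bound site. The median GC content of the window was 55.3% in members and 55.0% in all genes, whereas the median observed to expected CpG ratio was 0.837 and 0.534.

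SIN3A was the factor with peaks at most ribosomal protein genes. In the list without spike-in 51 members (63.8%) had a promoter peak, against 40.8% of all protein-coding genes, and in the list with spike-in 35 (43.8%) against 33.5%. A peak in both lists was found at 30 members (37.5%; all genes 30.0%), with overlapping peaks at 25 (31.2%; all genes 28.6%), and a peak in at least 1 at 56 (70.0%; all genes 44.2%). By subunit, 32 and 21 of the 48 large subunit genes had a peak in the lists without and with spike-in, and 19 and 14 of the 32 small subunit genes. No test over samples was possible with 1 list per preparation, and the 2 lists were called at different thresholds, so that preparation, spike-in and threshold cannot be told apart.

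**Figure D2:**
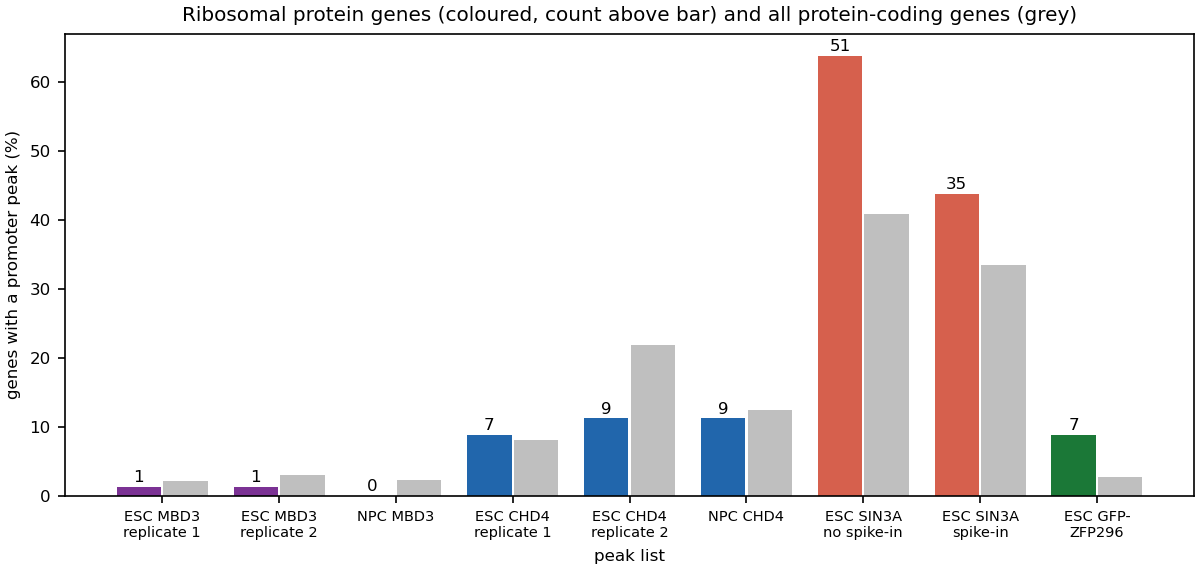
Bars give the share of genes with a promoter peak, in percent, in each of the 9 lists, for the 80 ribosomal protein genes (coloured by factor, with the count above) and for all protein-coding genes (grey). Members stood above the grey bar in both SIN3A lists (63.8% and 43.8%) and in GFP-ZFP296 (8.75%), and below it in ESC CHD4 replicate 2 (11.2% against 21.8%).

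The SIN3A peaks of the members had lower values than the promoter peaks of genes at large. The highest peak per member had a median value of 10.7 without spike-in, where the promoter peaks of all genes had 14.2, and 16 of 51 members lay above that median. With spike-in the medians were 8.92 and 9.79, and 15 of 35 members lay above. Against the median of the whole list, promoter or not, 19 of 51 members lay above without spike-in and 21 of 35 with it. The excess over the background shrank as weaker peaks were left out. With values of at least 10 only, 30 members (37.5%) against 31.9% of all genes had a peak without spike-in, and 15 (18.8%) against 16.2% with spike-in. When each list was cut to its 2304 highest peaks, the size of the shortest list, 5 members (6.25%) against 9.0% had a peak without spike-in and 8 (10%) against 9.36% with spike-in, so that for the list without spike-in the difference from the background turned from 22.9 to -2.75 percentage points.

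A few members went against this and had SIN3A peaks near the top of their list. Rpl22 (chr4:151699851-151708180, plus strand) is a large subunit protein needed for the development of alpha-beta T cells. It had the highest values of any member, 104 without and 119 with spike-in, above 99.7% and 99.9% of the peaks of those lists. Its peaks were centred at -75 and -16 bp from the nearest annotated start, at chr4:151699962, and were 484 and 779 bp wide. That start lies inside the gene record. Both centres lay downstream of the gene's 5′ end and past the end of the sequence printed below, which the peaks overlap. Rps12 (chr10:23504990-23507015, minus strand), of the small subunit, had 50.7 and 17.2, both centred upstream at -72 and -75 bp. Among members, Rpl22 and Rps12 thus held the highest and the next highest value in the list without spike-in. In the list with spike-in Rps12 came after Rpl18 (34.8), Rpl9 (27.4), Rpl32 (26.9) and Rpl30 (20.7).

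The promoter sequences of Rpl22 and Rps12 run from 200 bases before the gene's 5′ end to its 20th base on mm9. They are given because these genes had the highest SIN3A values of members in the list without spike-in. Any of the 8 strings above is in capitals.
Rpl22 (chr4:151699651-151699870, plus strand): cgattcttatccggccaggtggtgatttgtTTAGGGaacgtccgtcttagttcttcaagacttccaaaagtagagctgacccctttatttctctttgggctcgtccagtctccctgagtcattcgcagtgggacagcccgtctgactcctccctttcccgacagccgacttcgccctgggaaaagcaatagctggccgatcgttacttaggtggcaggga
Rps12 (chr10:23506996-23507215, minus strand): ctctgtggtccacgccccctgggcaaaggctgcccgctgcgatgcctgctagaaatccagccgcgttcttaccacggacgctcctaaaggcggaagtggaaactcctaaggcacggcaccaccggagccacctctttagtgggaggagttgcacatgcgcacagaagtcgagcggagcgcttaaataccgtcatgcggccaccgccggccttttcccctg
Rpl22 held 1 of the strings there, TTAGGG on the printed strand, and Rps12 none.

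Other members with high SIN3A values were Rpl32 with 25.2 and 26.9, Rpl7 with 24.0 and 15.7, and Rpl9 with 17.9 and 27.4, in the lists without and with spike-in. The Rpl7 peaks were centred at -782 and -870 bp from its start, overlap Rdh10, a retinol dehydrogenase gene, and lie 330 and 242 bp from the start of that gene. Rpl9 lies head to head with Lias, the lipoic acid synthetase gene, and its peaks lie 9 and 18 bp from the start of Lias, so the factor cannot be assigned to either gene. Rpl18 shares its promoter region with Sphk2, a sphingosine kinase gene, in the same way, with 20.6 and 34.8. Rpl5 and Rpl11, whose proteins are known to bind Mdm2 when ribosome assembly fails, had 13.4 and no peak, and 8.24 and 5.26. Rps6, the small subunit protein phosphorylated by S6 kinases, had a peak only with spike-in, as did Rpl12, Rpl19, Rpl27 and Rps20 (5 members, 6.25%; all genes 3.41%), whereas 21 members had one only without spike-in (26.2%; all genes 10.8%).

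Sharing a promoter region went with more SIN3A peaks among the members, as among all genes. Another protein-coding gene has a TSS within 1 kb in 14 members (17.5%) and in 12.7% of all genes. Of these 14 members 11 had a SIN3A peak without and 10 with spike-in, where 74.0% and 62.0% of all such genes had one. The 66 members with no such neighbour had 40 (60.6%) and 25 (37.9%), where 36.0% and 29.3% of all genes without a neighbour had one.

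MBD3 and CHD4 were rarer at the ribosomal protein genes. In ESCs MBD3 had a promoter peak at 1 member in replicate 1 (1.25%; all genes 2.18%) and at 1 in replicate 2 (1.25%; all genes 3.04%), the same gene, Rps29, and so at 1 member in both (all genes 0.809%) and at 1 in either (all genes 4.42%). In NPCs MBD3 had a promoter peak at 0 members (all genes 2.33%), so that 0 had one in both ESC lists and in NPCs (all genes 0.241%). CHD4 had one at 7 members in ESC replicate 1 (8.75%; all genes 8.03%), at 9 in replicate 2 (11.2%; all genes 21.8%) and at 9 in NPCs (11.2%; all genes 12.4%). The shares in replicate 1 and in NPCs were near the background, and only replicate 2, the list named for a Zfp219 BAC, lay well below it. That gap was smaller among stronger peaks: with values of at least 10 replicate 2 had a peak at 5 members (6.25%; all genes 8.10%), and with the list cut to 2304 peaks at 1 (1.25%; all genes 1.76%). At least 1 of the 6 MBD3 and CHD4 lists had a peak at 17 members (21.2%; all genes 29.2%), and at 13 (16.2%; all genes 19.4%) without that replicate.

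**Figure D3:**
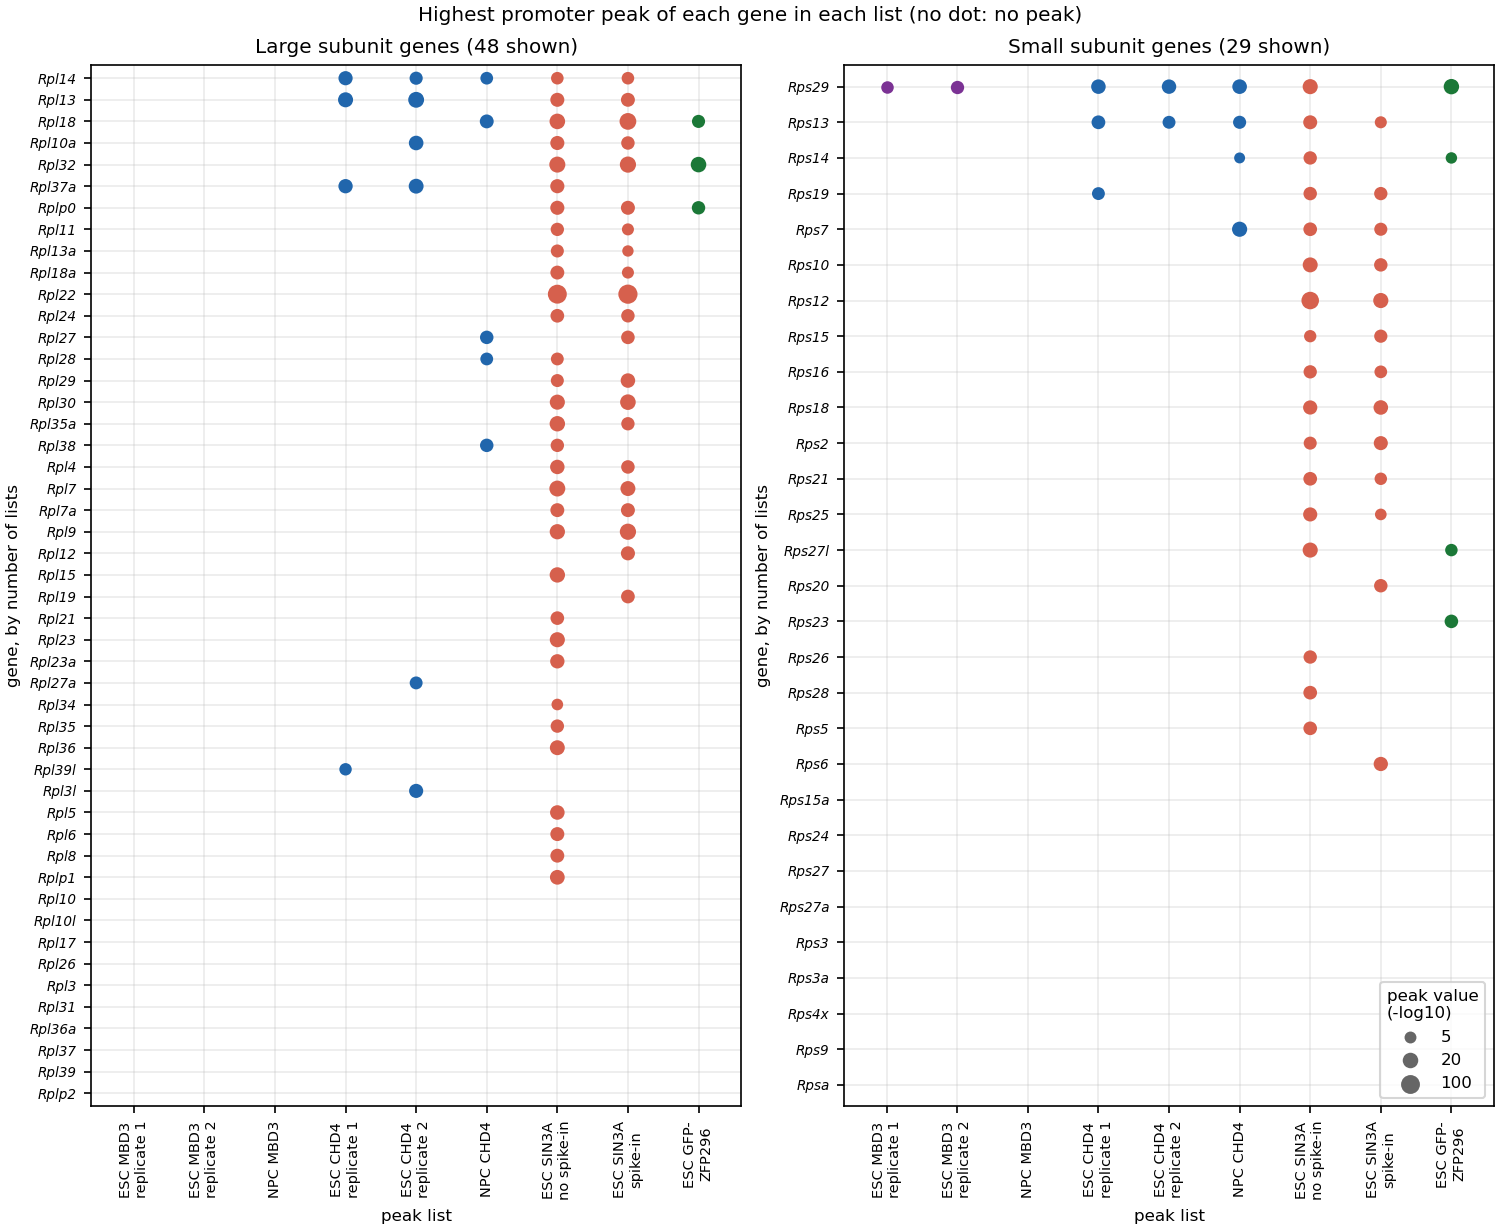
Each row is one of the ribosomal protein genes shown, large subunit on the left and small on the right, sorted by the number of lists, and each column a peak list, with a dot where the gene had a promoter peak and the dot area growing with the logarithm of the −log10 value of its highest peak. SIN3A (red) filled most rows, CHD4 (blue) was scattered, MBD3 (purple) appeared in the Rps29 row only, and the genes at the foot of each panel had no dot.

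CHD4 peaks in both ESC replicates were found at 5 members (6.25%; all genes 6.28%), namely Rpl13, Rpl14, Rpl37a, Rps13 and Rps29, and in each the peaks of the replicates overlapped (all genes 5.42%). Rpl13, a large subunit protein, had the highest CHD4 values of all members, 16.3 in replicate 1 and 23.3 in replicate 2, and no peak in NPCs. Rpl37a, a small zinc-binding protein of the large subunit, had 12.2 and 15.3 and none in NPCs. Rpl14 had 11.6 and 7.77 in ESCs and 6.65 in NPCs. Rps13 had 9.75 and 7.14 in ESCs and 7.68 in NPCs. The values of Rpl13 and Rpl37a exceeded from 81.6% to 96.7% of the peaks in their lists, and those of Rpl14 and Rps13 exceeded 78.9% and 67.3% in replicate 1 but from 22.2% to 39.0% in replicate 2 and in NPCs.

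Both cell types shared 3 of these genes, Rpl14, Rps13 and Rps29, with peaks that overlapped (3.75%; all genes 1.96% with overlap and 2.70% without that demand). In NPCs 6 members had a CHD4 peak and no ESC CHD4 peak (7.50%; all genes 4.95%, or 9.28% with replicate 2 left out, where the members were again 6): Rps7 with 17.2, Rpl18 with 10.3, Rpl27 and Rpl38 with 8.76 each, Rpl28 with 6.88 and Rps14 with 3.72. Rps7 is among the genes mutated in Diamond-Blackfan anaemia, an inherited failure of red cell production, and Rps14 is the gene whose loss underlies the anaemia of the 5q- syndrome. The Rps14 value exceeded 0.776% of the peaks of its list. In ESCs the remaining CHD4 calls rested on 1 replicate each, Rpl39l (6.02) and Rps19 (7.04) on replicate 1 (2.50%; all genes 1.75%), and 4 on replicate 2, among them Rpl10a (13.6), Rpl3l (11.3) and Rpl27a (7.14) (5.00%; all genes 15.5%). Rpl3l and Rpl39l are paralogs known for expression in striated muscle and in testis. With 1 NPC list the cell types could not be tested against each other.

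Every promoter peak of a member in the MBD3, CHD4 and GFP-ZFP296 lists lay upstream of the nearest annotated start. These were 35 peaks at 21 genes, 35 upstream and 0 downstream, with midpoints from -969 to -5 bp, whereas 55.4% of the promoter peaks of all genes in these lists lay upstream. Without ESC CHD4 replicate 2 there were 26 peaks at 17 genes, again with 0 downstream. Measured from the 5′ end of the gene record instead, a choice made after the data were seen, 32 of the 35 lay upstream and 3 inside the gene: the CHD4 peak of Rpl3l in ESC replicate 2 and the NPC CHD4 and GFP-ZFP296 peaks of Rpl18, which lie beside later starts of these genes. SIN3A member peaks lay on both sides, 32 upstream and 31 downstream without spike-in, and 23 and 17 with spike-in. Of the SIN3A promoter peaks of all genes 37.3% and 40.3% lay upstream. The highest SIN3A peak per gene had a median midpoint at -23 and -26 bp in members. In all genes it was at 57 and 34 bp, so the members' SIN3A peaks also lay further upstream. Beside this stands a difference in how well the sequence can be mapped, since 43-base words that occur once in mm9 made up a median of 97.8% of the upstream kilobase of members and 93.3% of the downstream one, and 100% of both in every 10th protein-coding gene. The downstream kilobase fell below 90% in 27 of the 80 members and in 366 of the 2237 comparison genes. The upstream one did so in 18 members and in 378 comparison genes. The part of mappability in the position of the peaks was not tested.

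**Figure D4:**
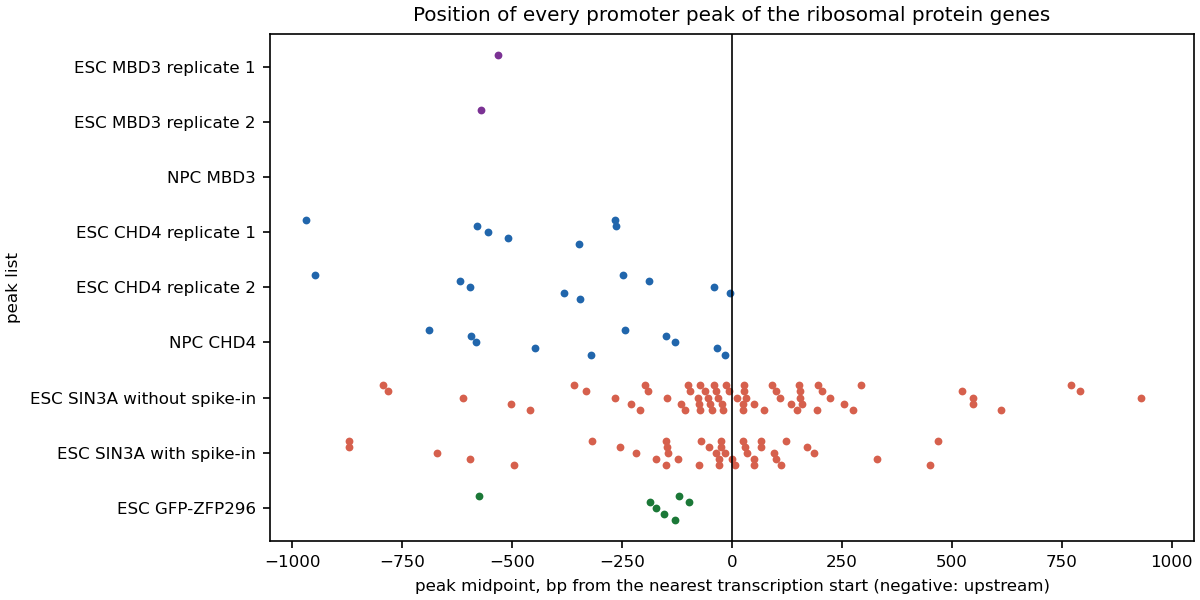
Each point is a promoter peak of a ribosomal protein gene, placed by the distance of its midpoint from the nearest TSS in bp (negative is upstream), with 1 line of points per list and the vertical spread only for legibility. All 35 points of the MBD3, CHD4 and GFP-ZFP296 lists lie left of 0, while those of SIN3A lie on both sides.

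Rps29 (chr12:70258709-70260173, minus strand), a zinc-binding protein of the small subunit, had promoter peaks in 7 of the 9 lists, more than any other member. Its values were 6.19 and 8.25 for MBD3 in ESC replicates 1 and 2, 13.3 and 12.8 for CHD4 in ESC replicates 1 and 2, and 13.8 for CHD4 in NPCs. GFP-ZFP296 had 19.1 and SIN3A without spike-in 16.8, and the lists of NPC MBD3 and of SIN3A with spike-in had none. The 6 peaks other than SIN3A were stacked at midpoints from -533 to -596 bp and shared the 130 bases printed here, on the strand of Rps29, while the SIN3A peak lay at 222 bp inside the gene.
Rps29, shared by 6 peaks (chr12:70260664-70260793, minus strand): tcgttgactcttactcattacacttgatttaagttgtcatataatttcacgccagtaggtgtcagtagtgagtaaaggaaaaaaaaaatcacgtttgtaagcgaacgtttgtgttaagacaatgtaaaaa
These peaks lie beside another gene. The annotation places a misc_RNA gene of 297 bp, AC099934.1, at chr12:70260282-70260578 on the plus strand, 109 bp from the 5′ end of Rps29, and the 6 peaks begin from 1 to 86 bp past its 3′ end. RefSeq, on the later build GRCm38.p6, has Rn7s1, a gene of 299 bp for the 7SL RNA of the signal recognition particle, at the same 109 bp from Rps29. In the kilobase upstream of Rps29 72.7% of the 43-base words occurred once in mm9, and whether the peaks belong to Rps29 or to the RNA gene was not tested.

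The CHD4 peaks of Rpl13 and Rpl14 hold a common run of letters. The bases shared by the ESC CHD4 peaks of Rpl13 and by the ESC and NPC CHD4 peaks of Rpl14 are printed on the strand of each gene, with GTTAAGAGC or its reverse complement in capitals.
Rpl13 (chr8:125625191-125625371, plus strand): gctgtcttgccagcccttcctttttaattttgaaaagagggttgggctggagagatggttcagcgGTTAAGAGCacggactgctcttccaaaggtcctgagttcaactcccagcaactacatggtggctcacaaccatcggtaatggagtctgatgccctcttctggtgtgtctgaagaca
Rpl14 (chr9:120479990-120480122, plus strand): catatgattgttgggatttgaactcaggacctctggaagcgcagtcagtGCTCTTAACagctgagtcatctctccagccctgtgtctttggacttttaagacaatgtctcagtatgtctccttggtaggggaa
GTTAAGAGC belongs to the consensus of the mouse short interspersed repeat B2, and it was chosen after the Rpl13 sequence had been read. On either strand it occurred in 6.43% of all peaks of ESC CHD4 replicate 1, 6.37% of replicate 2 and 3.10% of NPC CHD4. In the MBD3, SIN3A and GFP-ZFP296 lists it occurred in 0.0964% to 0.454% of peaks. Among the members' CHD4 promoter peaks it was in 2 of 7, 2 of 9 and 1 of 10 in the same order, all at Rpl13 and Rpl14, where 2.51%, 1.55% and 1.5% of all CHD4 promoter peaks held it. The match in the Rpl13 peaks was fixed by the choice of the string, so among members only the match at Rpl14 was open. Rpl13 had its SIN3A peaks (10.8 and 10.4) on the other side of the start, at 547 and 468 bp, and those of Rpl14 (6.37 and 6.35) lay at 133 and 65 bp.

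GFP-ZFP296 had promoter peaks at 7 members (8.75%), where 2.68% of all genes had one. Rpl32 had the highest value, 20.3, followed by Rps29 with 19.1, Rps23 with 9.08, Rplp0 with 8.56, Rpl18 with 7.71, Rps27l with 6.12 and Rps14 with 4.35. Rplp0 forms the base of the ribosomal stalk, and Rps27l is a p53-responsive paralog of Rps27. Rpl32 and Rps29 exceeded 95.8% and 94.9% of the peaks of the list, and the others from 4.45% to 56.7%. The share was also above the background with values of at least 10 only (2 members, 2.50%; all genes 0.760%), in the window of 500 bp (6 members, 7.50%; all genes 2.03%) and with the list cut to 2304 peaks (5 members, 6.25%; all genes 1.86%). It rests on 1 list, without replicate.

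SIN3A was found at 6 of these 7 genes, all but Rps23 (7.50%; all genes 2.27%), and its peaks overlapped those of ZFP296 at 4, Rpl18, Rpl32, Rplp0 and Rps27l (5.00%; all genes 1.86%). ESC CHD4 was found at 1, Rps29 (1.25%; all genes 1.72%, or 0.912% by replicate 1 alone). Of all 599 protein-coding genes with a ZFP296 promoter peak, 507 had SIN3A, 415 with overlapping peaks, and 385 had ESC CHD4, 204 by replicate 1 alone. At Rpl32 (chr6:115755523-115758765, minus strand) the ZFP296 peak of 234 bp at -173 bp overlapped SIN3A peaks of both lists, and its sequence is printed on the strand of the gene, with TTAGGG in capitals, as the highest ZFP296 peak of a member.
Rpl32, GFP-ZFP296 peak (chr6:115758822-115759055, minus strand): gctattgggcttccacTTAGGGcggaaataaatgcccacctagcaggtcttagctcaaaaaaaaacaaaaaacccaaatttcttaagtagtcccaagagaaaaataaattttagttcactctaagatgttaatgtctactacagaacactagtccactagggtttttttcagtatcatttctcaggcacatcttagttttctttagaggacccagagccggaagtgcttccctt
TTAGGG was in 1 of the 7 ZFP296 peaks of members, that of Rpl32, and in 10.5% of the ZFP296 promoter peaks of all genes.

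A SIN3A peak with none in the other 7 lists was found at 39 members (48.8%; all genes 21.5%), and at 41 (51.2%; all genes 28.1%) without ESC CHD4 replicate 2. SIN3A and ESC CHD4 were both found at 8 (10%; all genes 18.4%), with overlapping peaks at 3, among them Rpl10a and Rps13 (3.75%; all genes 15.3%), Rpl10a only through CHD4 replicate 2. By CHD4 replicate 1 alone, SIN3A and ESC CHD4 were both found at 6 (7.50%; all genes 6.66%), with overlapping peaks at 1, Rps13 (1.25%; all genes 4.92%). ESC CHD4 without SIN3A was found at Rpl27a, Rpl39l and Rpl3l (3.75%; all genes 5.11%), and by replicate 1 alone at Rpl39l (1.25%; all genes 1.36%). Rps13 (chr7:123475021-123477704, minus strand) was the member at which the peaks of all 3 CHD4 and both SIN3A lists overlapped, at midpoints from -345 to -255 bp.

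At 20 members (25%) no list had a promoter peak, against 48.5% of all genes. Without ESC CHD4 replicate 2, 58 members (72.5%) and 48.8% of all genes had a peak in at least 1 list, which left 22 members with none. The first 10 of the 20 in alphabetical order were Rpl10, Rpl10l, Rpl17, Rpl26, Rpl3, Rpl31, Rpl36a, Rpl37, Rpl39 and Rplp2. The 20 include Rpl10l, a testis-expressed paralog, Rps27a, which is translated as a fusion with ubiquitin, and all 4 members on the X chromosome, Rpl10, Rpl36a, Rpl39 and Rps4x. Peaks on X were few for all genes as well: SIN3A had a promoter peak at 9.33% and 4.40% of X-linked genes without and with spike-in, against 42.2% and 34.7% of autosomal genes. Single-copy 43-base words made up a median of 94.2% of the whole window in the 20 members without a peak and 94.1% in members with a SIN3A peak. By side, the medians were 99.8% and 97.5% upstream and 90.1% and 93.5% downstream, in the same order. The downstream side fell below 90% in 9 of the 20 and in 17 of the 56. The part of this in the missing peaks was not tested. The string TCTCGCGA was in 6 of the 24 members with no SIN3A peak and in 6 of the 56 with one. In the same order the counts were 8 and 16 for the ETS core, 15 and 23 for SP1 and 2 and 3 for YY1. They were 3 and 6 for TATAAA, 3 and 5 for TTAGGG, 1 and 8 for the E-box and 0 and 3 for NRF1. These splits were not tested.

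Other gene lists of the translation apparatus had larger SIN3A shares than the ribosomal protein genes. Of 77 genes for mitochondrial ribosomal proteins, which serve the ribosomes inside mitochondria, 61 (79.2%) had a SIN3A peak without and 53 (68.8%) with spike-in. Of 45 genes for ribosome biogenesis, such as the nucleolar proteins and RNA polymerase I, 41 (91.1%) and 33 (73.3%) had one. Of 36 translation factors and other TOP mRNA genes 32 (88.9%) and 22 (61.1%) had one. For CHD4 in ESC replicate 2, the mitochondrial list had 26 of 77 (33.8%), where the cytosolic list had 11.2% and all genes 21.8%. In ESC replicate 1 it had 7 (9.09%), where the cytosolic list had 8.75% and all genes 8.03%. In NPCs it had 15 (19.5%), where the cytosolic list had 11.2% and all genes 12.4%. At least 1 of the 6 MBD3 and CHD4 lists had a peak at 41.6% of the mitochondrial and 31.1% of the biogenesis genes. For the translation factor genes this share was 25%, and for the members 21.2%. Without replicate 2 these shares were 27.3%, 20% and 11.1%, beside 16.2% of the members, so that the translation factor genes came below the members. The differences between the lists were not tested.

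**Figure D5:**
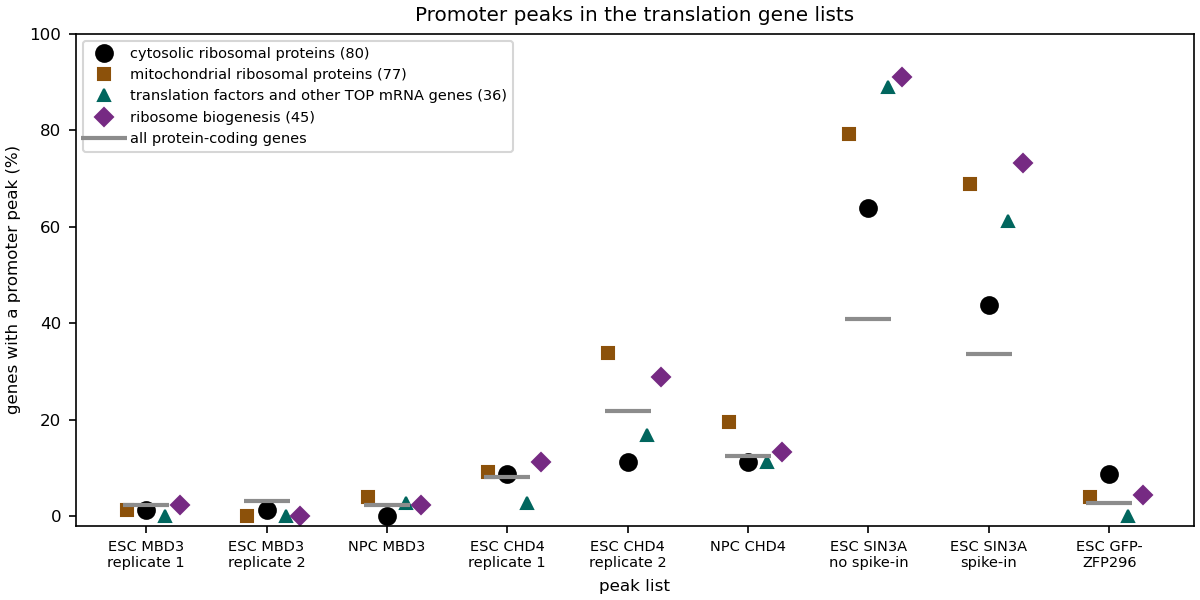
Points give the share of genes with a promoter peak, in percent, in each of the 9 lists, for the cytosolic ribosomal protein genes (black) and for the mitochondrial ribosomal, translation factor and biogenesis lists (coloured, shifted sideways), with a grey bar for all protein-coding genes. In the SIN3A lists all of them lie above the bar and the black points (63.8% and 43.8%) are the lowest of the lists, while in GFP-ZFP296 the black point (8.75%) is the highest.

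Ribosomal genes that the rule left out had 0 of 6 genes with a promoter peak in the MBD3, CHD4 and GFP-ZFP296 lists. SIN3A peaks were found at 5 of the 6 without spike-in, among them Fau, Gnb2l1, Rpl22l1 and Rpl36al, and at 3 with spike-in. Fau encodes a ribosomal protein fused to a ubiquitin-like protein, and Gnb2l1 encodes RACK1.

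The nearest peak, promoter peaks included, had a shorter median distance from members than from genes at large in all 9 lists. The median distance from a member's start was 213.5 bp to a SIN3A peak without spike-in and 5850 bp with it, against 15694 and 31669 bp for all genes. For ESC CHD4 it was 27100.5 bp in replicate 1 and 10866 bp in replicate 2, against 91411 and 21517 bp. For GFP-ZFP296 it was 92570 against 249144 bp. MBD3 lay further off, at 227949 bp in ESC replicate 1, 53289.5 bp in replicate 2 and 245863 bp in NPCs, against 344024, 127073 and 354063 bp for all genes, but fewer members had an MBD3 peak within 10 kb, 2 (2.50%), 5 (6.25%) and 0, where 4.79%, 9.91% and 4.56% of all genes had one.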

How the data were processed

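ChIP-seq peak lists of 9 of the 36 samples were used, and the other 27 samples were not analysed here. The authors mapped reads to mm9 with BWA, kept uniquely mapped reads, removed duplicates and called peaks for each sample on its own against input; the submitters' processing notes name MACS2 2.0 and SAMtools. Each deposited peak has a −log10 value; the sources do not say if the authors took it from a p-value or from a q-value. Peak names carry a threshold of 0.001 in 8 lists and of 0.0001 for SIN3A without spike-in, and those of 7 lists refer to an equal number of reads; depth is otherwise unknown.

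Midpoints were assigned to genes of GENCODE vM1 by the 1 kb window, a step tested on simulated data. Counts were set beside the share of all protein-coding genes. No p-value was computed, because most groups have 1 list. Members, lists and strings were chosen with earlier results of these data known. Named were the 10 members in most lists, the 3 highest per list, those in both ESC MBD3 lists, NPC MBD3 or ZFP296, and the first members with no peak; other names were chosen after their values were seen. Alternatives covered the window, TSS choice, overlap, value minimum, list size, chromosomes, member rule and replicates. Values of a few single genes are not reported here. Sequences came from the mm9 reference. Tools were Python 3.11.15, numpy 2.4.6, scipy 1.17.1, matplotlib 3.10.9, pyfaidx 0.9.0.4 and samtools 1.23.1.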

Additional observations from a re-analysis of the deposited data

How the results depend on the processing

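Of the counts recomputed under the alternatives, 112 were within 1.5 times the reported count and 30 were not. In a 500 bp window, ESC MBD3 fell to 0 members in replicate 1, replicate 2 and both (all genes 1.71%, 2.22% and 0.568%). ESC CHD4 fell to 3 in replicate 1 (3.75%, all genes 6.32%) and 2 in both (2.50%, all genes 4.77%). From 1 kb upstream to 5 kb downstream, CHD4 reached 11 (13.8%, all genes 10.3%) and 14 members (17.5%, all genes 26.4%) in ESC replicates 1 and 2. With values of at least 10, the counts were 0 and 0 for ESC MBD3 replicates 1 and 2, 4 and 5 for ESC CHD4, 3 for NPC CHD4, 30 and 15 for SIN3A without and with spike-in, and 2 for GFP-ZFP296. In that order these were 0%, 0%, 5.00%, 6.25%, 3.75%, 37.5%, 18.8% and 2.50% of members. The all-gene shares were 0.465%, 1.01%, 2.31%, 8.10%, 4.71%, 31.9%, 16.2% and 0.760%. With equal list sizes the counts were 0 for ESC MBD3 replicate 2 (all genes 0.858%) and both (all genes 0.416%). CHD4 had 3 members in ESC replicate 1 (3.75%, all genes 1.40%) and 1 in replicate 2 (1.25%, all genes 1.76%). It had 1 in both ESC lists (1.25%, all genes 0.568%) and 1 in NPCs (1.25%, all genes 1.44%). SIN3A had 5 without spike-in (6.25%), 8 with spike-in (10%, all genes 9.36%) and 5 in both (6.25%, all genes 4.40%). There the SIN3A difference without spike-in reversed to -2.75 percentage points. These alternatives use fewer peaks by construction. The count in both lists, given by either list alone, ranged from 7 to 9 for ESC CHD4, from 35 to 51 for SIN3A and was 1 for MBD3; for both ESC CHD4 lists with NPC CHD4 it was 3 with either. Alternatives added after seeing the data moved the C or T runs from 8 to 33 members with any annotated start (all genes 9.20% to 16.8%). Without ESC CHD4 replicate 2 the count with any of the MBD3 and CHD4 lists went from 17 to 13 (all genes 29.2% to 19.4%). The count with any list went from 60 to 58 (all genes 51.5% to 48.8%), and with any ESC CHD4 list from 11 to 7 (all genes 23.5% to 8.03%). No paired analysis was possible because the counts come from no test and the lists hold no reads. Peaks weaker than the calling threshold could not be seen, so a missing peak does not show that a factor is absent.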
